A study of Rattus norvegicus with 6 samples.

Results

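The genes described here build and control the machinery of chromosome segregation: the kinetochore, the spindle assembly checkpoint, the mitotic spindle, condensin and the contractile apparatus that divides the cell. They were 47 rat genes taken by symbol and matched to the array's probes through RefSeq accessions. Of the 47 genes, 35 had a probe matched in this way, and each of those 35 had a probe bright enough to be tested. In all, 31087 genes were tested, of which 12015 had a symbol. The rest were counted under the array's own sequence names, and shares over all genes below include them. The other 12 were not analysed here because no probe matched them: Mki67, Top2a, Bub1b, Cenpe, Cenpk, Melk, Spc24, Anln, Ect2, Ncapg, Ncapd2 and Ncaph. Probes for these 12 may exist among those left without a symbol.

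The kinetochore is a protein platform that forms on centromeric chromatin and ties each chromosome to spindle microtubules. Kinetochores without a microtubule attachment send the checkpoint signal, which holds back the anaphase-promoting complex until every chromosome is attached. Once it is released, cohesin is cut, the chromatids part, and a central spindle marks where the cell will be cleaved. Most of these transcripts accumulate only in cells close to mitosis, and in the kidney of a healthy adult rat few tubule cells divide.

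Renal cortex of 3 rats given o-anisidine hydrochloride was compared with renal cortex of 3 control rats given water. All were male Sprague-Dawley (Crl:CD(SD)) rats bought at 5 weeks of age. The o-anisidine rats received 700 mg/kg/day for 4 weeks, and the controls received water over the same period. How the dose was given is not stated in the labels. o-Anisidine is an aromatic amine known as a carcinogen of the rodent urinary bladder. Total RNA of each rat was labelled with Cy3 and hybridised to 1 single-colour Agilent array, so each value is one animal's bulk tissue. In such samples more dividing cells and more RNA per dividing cell cannot be told apart.

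Between 41670 and 43630 of 61657 probes per array were well above background, and no probe was saturated. Pearson correlations between arrays over all genes were 0.992 to 0.9935 within the o-anisidine group, 0.9929 to 0.9945 within the controls and 0.9899 to 0.992 between the groups. The arrays lay on 2 slides: o-anisidine 3 shared slide 1 with controls 1, 2 and 3, and o-anisidine 1 and 2 were on slide 2. Proximal tubule markers, which define most of the cortex, were all measured (12 of 12), and their summed signal was 2160 to 2550 in the o-anisidine group and 2140 to 2360 in the controls. Levels below are log2 of the processed signal divided by the 75th percentile of its array, so 0 means a signal equal to that percentile. Levels of different genes come from different probes and are not compared with each other.

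Mitosis genes were higher in the cortex of o-anisidine rats as a group, by a median of 1.11 on the log2 scale (2.16-fold), against a median of 0.00 over all genes tested. Individual changes ran from -0.24 for Smc2 to 2.32 for Hmmr, and 34 of the 35 measured genes were above 0. In 32 of the 35, every o-anisidine array lay above every control array, a pattern that 9.55% of all genes tested showed in that direction; in none did every o-anisidine array lie below every control array, against 8.88% of all genes. A log2 change of 1 or more was seen in 20 of the 35, against 0.952% of all genes. At the level of single genes the calls were few. No mitosis gene passed an adjusted p of 0.05 in limma's moderated test with Benjamini-Hochberg adjustment over all genes, a threshold that 0.0611% of all genes passed (11 higher, or 0.0354%, and 8 lower in the o-anisidine group). Their adjusted p-values ran from 0.0891 to 0.735. At an unadjusted p under 0.05, 32 of the 35 were higher and 0 were lower, against 6.36% higher and 5.14% lower over all genes, and 7 were among the 100 genes with the smallest p.

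**Figure D1:**
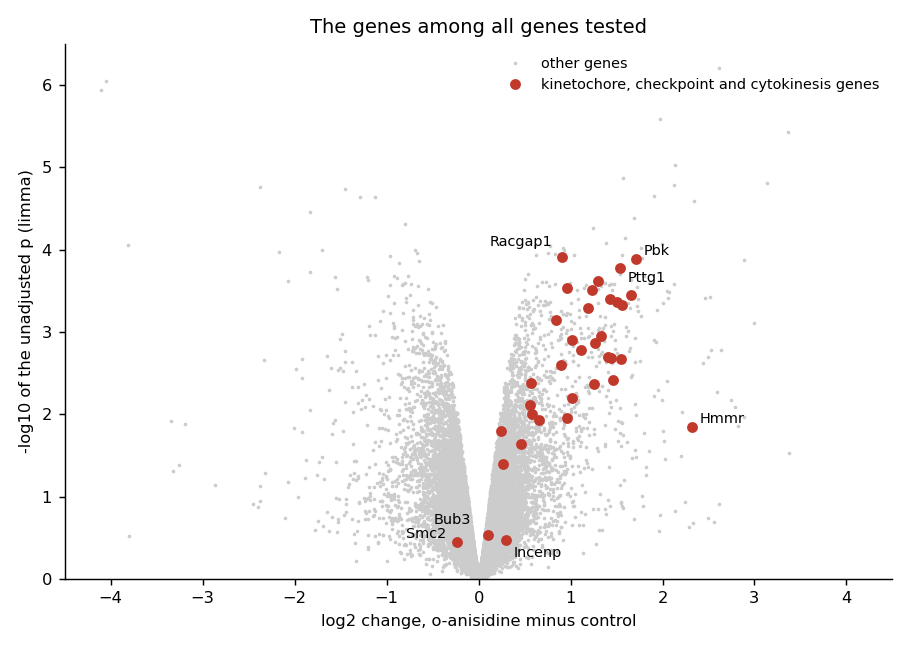
Change in log2 units (o-anisidine minus control, horizontal axis) against -log10 of the unadjusted limma p (vertical axis) for the genes tested, with the 35 measured mitosis genes as large red points and 5 other genes lying outside the axes. The red points lie to the right of 0 except Smc2 at -0.24, and Bub3, Incenp and Smc2 sit at the bottom near the centre.

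How many of the single genes were called differed between settings. With an intensity trend and robust variance, 8 of the 35 passed the adjusted threshold (Cdc20, Cdca3, Ndc80, Nusap1, Pbk, Prc1, Pttg1 and Racgap1), against 0.293% of all genes called higher. Normexp background correction started from the median spot signal in place of the processed signal and added an offset of 50 to every signal. Such an offset makes the log2 changes of dim probes smaller by construction. With normexp, 8 passed (Cdc20, Cdca3, Dlgap5, Nusap1, Pbk, Prc1, Pttg1 and Ube2c), against 0.216% of all genes. Without o-anisidine 2, 4 passed (Ndc80, Pbk, Prc1 and Pttg1), against 0.0515%.

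The shift of the 35 genes from their control means was not the same on the 3 treated arrays. Its median was 1.07, 0.82 and 1.46 on o-anisidine 1, 2 and 3, and 0.10, 0.12 and -0.17 on controls 1, 2 and 3. The treated and control arrays did not overlap in this median. Array o-anisidine 2 was the lowest treated array for 28 of the 35 genes (80%), where it was lowest for 27% of all genes, and o-anisidine 3 was the highest for 26 (74.3%), against 30.6% of all genes. Among controls, control 3 was lowest for 28 of the 35 (80%), against 35.8% of all genes. The highest control was control 2 for 19 of the 35 and control 1 for 14. The spread of the 35 genes was also wider among treated animals: the SD was larger in the o-anisidine group for 27 of the 35 genes (77.1%, against 55.4% of all genes), with a median SD of 0.33 in the o-anisidine group and 0.21 in the controls.

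Slide 1 alone held both groups. There, o-anisidine 3 lay above all 3 controls for 32 of the 35 genes, against 25.2% of all genes, and the median change was 1.46. Since o-anisidine 3 also had the highest values of the treated arrays, the slide and that animal cannot be told apart. With the slide as a block, 29 of the 35 were higher at an unadjusted p under 0.05, against 4.47% of all genes. None of the 35 passed the adjusted threshold in that fit, which 0.00643% of all genes passed as higher. Slide 2 held no control, so the change in that fit was also that of o-anisidine 3 against the 3 controls. Arrays o-anisidine 1 and 2 added only to its estimate of the variance. On slide 1 alone, 28 of the 35 were higher at an unadjusted p under 0.05, against 4.75% of all genes, with the single treated array assumed to vary like the controls.

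**Figure D2:**
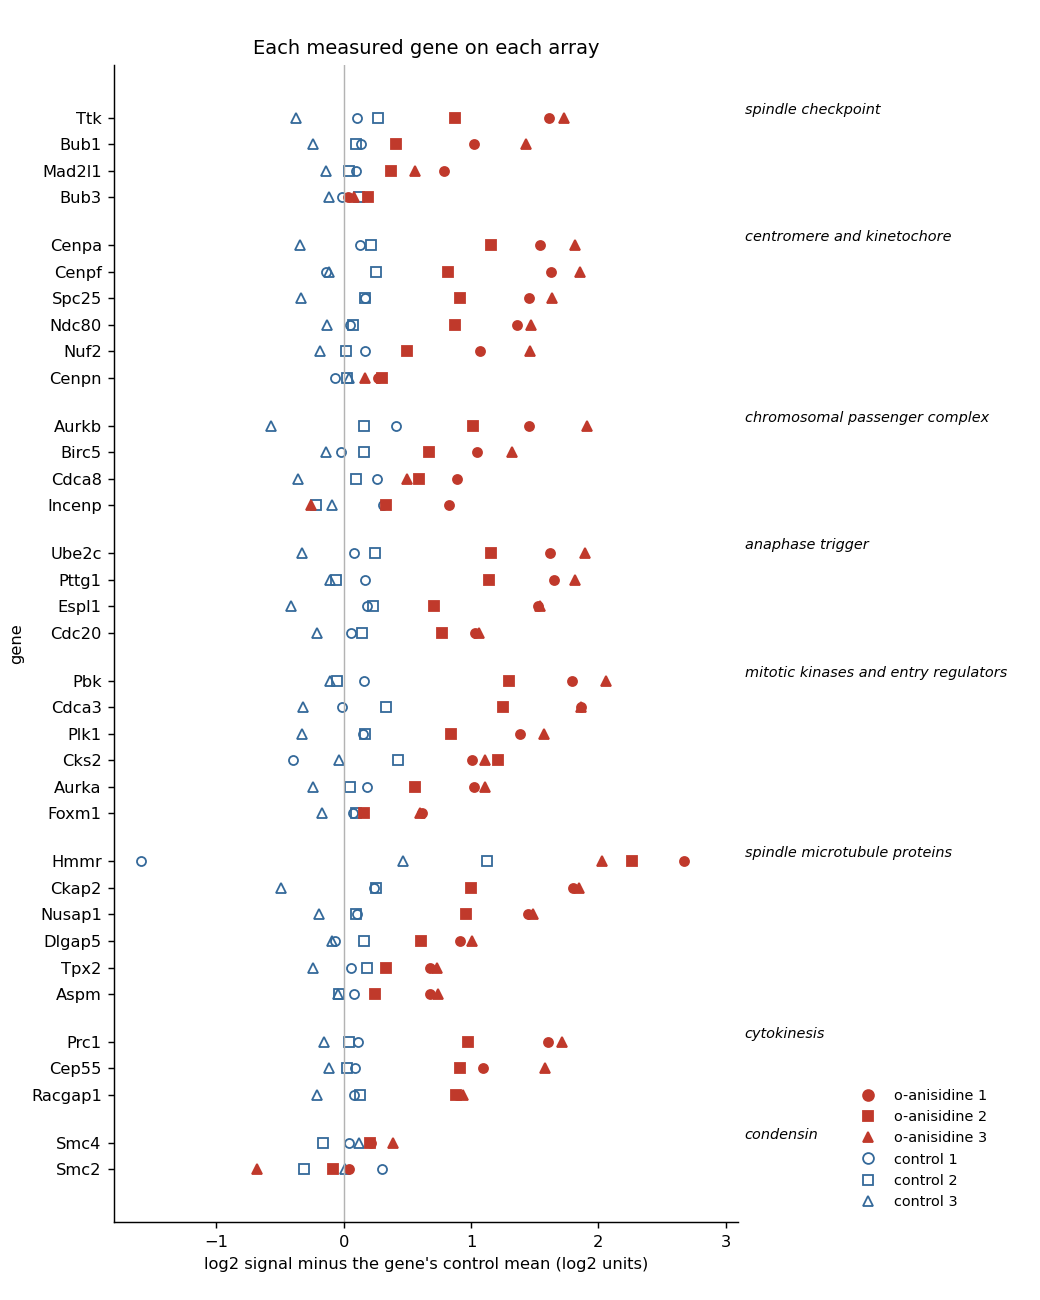
Each of the 35 measured genes on each of the 6 arrays, as log2 signal minus that gene's control mean (horizontal axis), with genes grouped by role; filled red symbols are the 3 o-anisidine arrays and open blue symbols the 3 controls. The red symbols lie right of the blue ones in 32 genes, and they mix with them in Bub3, Incenp and Smc2.

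Many genes of this kind share 2 short promoter elements. The cell cycle genes homology region, or CHR, is bound by the DREAM and MuvB complexes, which repress these genes in resting cells and activate them before mitosis, and the CCAAT box is bound by NF-Y. The RefSeq promoter table (GRCr8) held 40 of the 47 genes, 28 of them measured here. In the 250 bases before the gene start, on either strand, 23 of the 40 promoters (57.5%) held the CHR letters as TTTGAA or TTCGAA, against 17.4% of all 33469 promoters in the table. CCAAT was found in 29 (72.5%), against 34.0% of all promoters. Both were present in 20 (50%), against 6.31% of all promoters and 4.84% of the 10284 promoters of genes tested here under a symbol. In Cdca8 and Mki67 the letters of the 2 motifs overlapped. The CHR matches lay a median of 60 bases before the start and the CCAAT matches a median of 104. A match is a description of letters, not evidence of binding.

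The promoters printed here are each shown as the 120 bases before the gene start, 5′ to 3′ on the gene's strand, with the CHR and CCAAT letters (or their reverse complements TTCAAA and ATTGG) in capitals. Pttg1, Cdc20, Espl1 and Prc1 stand for genes that were higher in o-anisidine cortex and hold both motifs. Bub3 holds both while its change was 0.10, and Ndc80 holds neither while its change was 1.24.
Pttg1 (chr10:28406327-28406446, minus strand): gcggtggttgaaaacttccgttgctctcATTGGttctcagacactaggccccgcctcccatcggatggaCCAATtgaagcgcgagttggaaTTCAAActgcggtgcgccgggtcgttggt
Cdc20 (chr5:137255800-137255919, minus strand): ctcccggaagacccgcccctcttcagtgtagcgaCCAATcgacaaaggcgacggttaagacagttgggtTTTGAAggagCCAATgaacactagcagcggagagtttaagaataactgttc
Espl1 (chr7:135302596-135302715, plus strand): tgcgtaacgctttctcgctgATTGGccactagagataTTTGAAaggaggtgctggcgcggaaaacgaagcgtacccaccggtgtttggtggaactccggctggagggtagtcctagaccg
Prc1 (chr1:143659361-143659480, plus strand): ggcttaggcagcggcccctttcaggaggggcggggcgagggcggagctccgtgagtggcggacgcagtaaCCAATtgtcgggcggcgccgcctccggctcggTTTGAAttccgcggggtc
Bub3 (chr1:195760412-195760531, plus strand): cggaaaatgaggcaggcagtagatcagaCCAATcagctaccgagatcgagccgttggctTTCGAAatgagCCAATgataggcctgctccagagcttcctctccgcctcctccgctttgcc
Ndc80 (chr9:118887530-118887649, minus strand): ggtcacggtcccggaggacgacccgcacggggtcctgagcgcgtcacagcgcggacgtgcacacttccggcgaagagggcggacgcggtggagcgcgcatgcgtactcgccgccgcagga

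**Figure D3:**
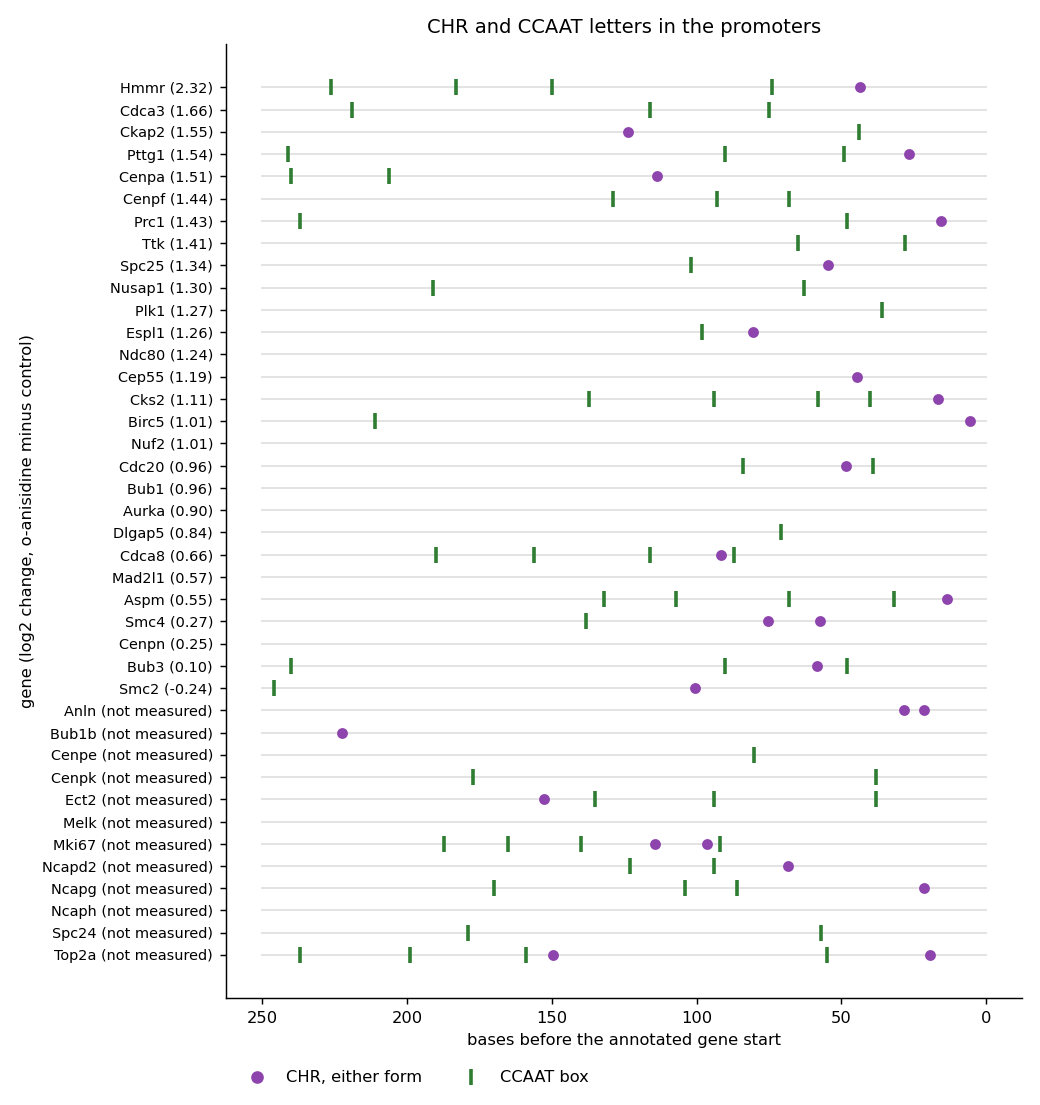
Positions of the CHR letters (purple points) and CCAAT letters (green ticks) in the 250 bases before the start of the 40 genes with a RefSeq promoter, in bases before the start (horizontal axis), with measured genes ordered by their log2 change from top to bottom. Genes with a CHR appear along the whole range of changes, from Hmmr at 2.32 to Smc2 at -0.24, and measured genes with neither motif include Ndc80 at 1.24.

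The spindle checkpoint genes had a median change of 0.76 over the 4 measured of 5 listed. Ttk encodes MPS1, the kinase that starts the checkpoint signal at unattached kinetochores. Its level was -1.02, -1.76 and -0.90 on o-anisidine 1, 2 and 3, and -2.52, -2.36 and -3.00 on controls 1, 2 and 3. Array o-anisidine 2 was nearest the controls, and the groups did not overlap. The change was 1.41 ± 0.27 (SE, 2.65-fold; adjusted p = 0.157, limma). Mad2l1 encodes MAD2, which binds CDC20 in the inhibitory checkpoint complex. It stood at -1.06, -1.48 and -1.28 in the o-anisidine group and at -1.75, -1.81 and -1.98 in the controls, without overlap, a change of 0.57 ± 0.13 (SE; adjusted p = 0.207, limma). Bub1, a kinase that docks other checkpoint proteins at the kinetochore, had a change of 0.96. Bub3, the partner of BUB1 and BUBR1, was the exception among the checkpoint genes. Its level was 4.11, 4.27 and 4.15 in the o-anisidine group and 4.06, 4.20 and 3.96 in the controls, and the groups overlapped. The change was 0.10, with a 95% interval of -0.12 to 0.32.

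Kinetochore and centromere genes had a median change of 1.29 over the 6 measured of 9 listed, and in each of the 6 the groups did not overlap. Ndc80, the microtubule-binding subunit of the outer kinetochore, stood at -1.09, -1.58 and -0.98 in the o-anisidine group and at -2.40, -2.37 and -2.58 in the controls. This was a change of 1.24 ± 0.17 (SE, 2.35-fold; adjusted p = 0.101, limma), and its promoter, printed above, holds neither motif. The other measured subunits of the same complex also differed without overlap, Nuf2 by 1.01 and Spc25 by 1.34. Cenpa, the histone H3 variant that marks centromeric chromatin, was a dim probe: -4.04, -4.43 and -3.76 in the o-anisidine group and -5.46, -5.37 and -5.93 in the controls, where 2 of 3 arrays were above background. Its change was 1.51 ± 0.22 (SE; adjusted p = 0.108, limma), and 0.58 with normexp background correction. Cenpf, a large coiled-coil protein of the outer kinetochore, had a change of 1.44 on the probe used. Cenpn, which reads CENP-A nucleosomes at the inner kinetochore, had the smallest change. Its level was -0.56, -0.53 and -0.67 in the o-anisidine group and -0.90, -0.81 and -0.79 in the controls. The groups did not overlap, and the change of 0.25 ± 0.07 (SE; adjusted p = 0.328, limma) was 0.11 with normexp.

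The chromosomal passenger complex, made of the kinase Aurora B and its partners survivin, INCENP and borealin, corrects faulty attachments and later moves to the central spindle. All 4 of its genes were measured, with a median change of 0.84. Birc5, which encodes survivin, stood at 0.24, -0.14 and 0.51 in the o-anisidine group and at -0.83, -0.65 and -0.94 in the controls, a change of 1.01 ± 0.18 (SE; adjusted p = 0.135, limma). Aurkb stood at -4.55, -4.99 and -4.09 in the o-anisidine group and at -5.59, -5.84 and -6.57 in the controls, where 2 of 3 arrays were above background. The groups of both genes did not overlap. The Aurkb change was 1.46 ± 0.32 (SE; adjusted p = 0.198, limma), and 0.43 with normexp. Cdca8, which encodes borealin, had a change of 0.66 without overlap. Incenp, the scaffold of the complex, had a smaller change than the other 3. It stood at 1.85, 1.35 and 0.77 in the o-anisidine group and at 1.33, 0.81 and 0.93 in the controls, and o-anisidine 3 was below every control. Its change of 0.30 had a 95% interval of -0.41 to 1.01, and on slide 1 alone it was -0.26.

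The anaphase trigger had the highest median change of the role groups, 1.40 over all 4 of its genes, and no gene's groups overlapped. Pttg1 encodes securin, the inhibitor that the anaphase-promoting complex destroys to free separase. It stood at 1.85, 1.34 and 2.01 in the o-anisidine group and at 0.36, 0.13 and 0.08 in the controls. The change was 1.54 ± 0.19 (SE, 2.91-fold; adjusted p = 0.0993, limma). Cdc20, the activator that hands securin to that complex, stood at 0.48, 0.21 and 0.51 in the o-anisidine group and at -0.50, -0.41 and -0.76 in the controls. Its change was 0.96 ± 0.13 (SE, 1.94-fold; adjusted p = 0.101, limma). Espl1 encodes separase, the protease that cuts cohesin. It stood at -1.45, -2.27 and -1.44 in the o-anisidine group and at -2.80, -2.75 and -3.39 in the controls, a change of 1.26 ± 0.28 (SE; adjusted p = 0.207, limma). Array o-anisidine 2 was the lowest of the treated arrays in all 3 of these genes. Ube2c, the ubiquitin-conjugating enzyme of the complex, had a change of 1.56. The promoters of Pttg1, Cdc20 and Espl1 printed above all hold both motifs.

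Mitotic kinases and regulators of mitotic entry had a median change of 1.19 over the 6 measured of 7 listed, without overlap in any of them. Pbk, a kinase that is active in mitosis, had one of the smallest p-values of the whole list. Its level was -1.90, -2.39 and -1.64 in the o-anisidine group and -3.53, -3.75 and -3.80 in the controls, a change of 1.72 ± 0.20 (SE, 3.29-fold; adjusted p = 0.0892, limma). Cdca3, an F-box-like protein that promotes entry into mitosis, stood at 0.79, 0.18 and 0.80 in the o-anisidine group and at -1.08, -0.74 and -1.39 in the controls. Its change was 1.66 ± 0.23 (SE, 3.16-fold; adjusted p = 0.108, limma). Plk1 and Aurka, the kinases of spindle assembly and centrosome maturation, had changes of 1.27 and 0.90. Cks2, a small subunit of cyclin-dependent kinase complexes, had a change of 1.11 and was one of the few genes in which o-anisidine 2 was the highest treated array, at 1.37 against 1.16 and 1.27 on o-anisidine 1 and 3. Foxm1, the transcription factor that activates many of these genes in the G2 phase, had the smallest change of the group. It stood at -1.02, -1.48 and -1.04 in the o-anisidine group and at -1.57, -1.55 and -1.81 in the controls. The change was 0.46 ± 0.15 (SE; adjusted p = 0.362, limma) on the probe used and 0.76 on a second, dimmer probe.

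Proteins that bundle, stabilise or focus spindle microtubules had a median change of 1.07 over all 6 genes, again without overlap. Nusap1, which bundles microtubules around chromosomes, stood at -0.36, -0.85 and -0.33 in the o-anisidine group and at -1.71, -1.72 and -2.01 in the controls. The change was 1.30 ± 0.17 (SE, 2.46-fold; adjusted p = 0.0993, limma). Dlgap5 encodes HURP, which stabilises the fibres that pull on kinetochores. It stood at -0.98, -1.29 and -0.88 in the o-anisidine group and at -1.96, -1.73 and -1.99 in the controls, a change of 0.84 ± 0.13 (SE; adjusted p = 0.12, limma). Changes of Ckap2, Tpx2 and Aspm were 1.55, 0.58 and 0.55. Hmmr, a spindle protein that also binds hyaluronan, had the largest change of the 35 and the least certain. It stood at -3.90, -4.31 and -4.55 in the o-anisidine group and at -8.17, -5.45 and -6.11 in the controls, and only 1 of 3 control arrays was above background. The change was 2.32 ± 0.68 (SE; adjusted p = 0.315, limma), 1.53 without control 1 and 0.67 with normexp.

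Cytokinesis genes had a median change of 1.19 over the 3 measured of 5 listed, without overlap. Racgap1, the GTPase-activating subunit of centralspindlin, had the smallest p of the 35 genes. Its level was -1.41, -1.42 and -1.37 in the o-anisidine group and -2.23, -2.18 and -2.51 in the controls. The treated arrays lay closer together than for any neighbour in this role, and the change was 0.90 ± 0.10 (SE, 1.87-fold; adjusted p = 0.0891, limma), or 0.59 with normexp. Prc1, which crosslinks antiparallel microtubules of the central spindle, stood at -0.56, -1.18 and -0.45 in the o-anisidine group and at -2.05, -2.12 and -2.32 in the controls. Its change was 1.43 ± 0.21 (SE, 2.70-fold; adjusted p = 0.108, limma), and its promoter, printed above, holds a CHR and a CCAAT box. Cep55, which recruits the abscission machinery to the midbody, stood at -1.78, -1.96 and -1.30 in the o-anisidine group and at -2.78, -2.85 and -2.99 in the controls, a change of 1.19 ± 0.18 (SE; adjusted p = 0.11, limma).

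Condensin, the complex that compacts chromosomes, had the lowest median of the roles. Its core ATPase subunits were the only 2 of 5 listed genes measured, with a median change of 0.01. Smc4 stood at -0.94, -0.94 and -0.76 in the o-anisidine group and at -1.10, -1.31 and -1.03 in the controls. Its groups did not overlap, and the change was 0.27 ± 0.10 (SE; adjusted p = 0.416, limma). Smc2 stood at -5.33, -5.45 and -6.05 in the o-anisidine group, where 2 of 3 arrays were above background, and at -5.07, -5.68 and -5.36 in the controls. The groups overlapped. The Smc2 change of -0.24 had a 95% interval of -0.82 to 0.34, which holds decreases as well as small increases. A second, dimmer Smc2 probe had the opposite sign, with a change of 0.40. It was not kept, being above background on 0 treated arrays and 1 control array.

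**Figure D4:**
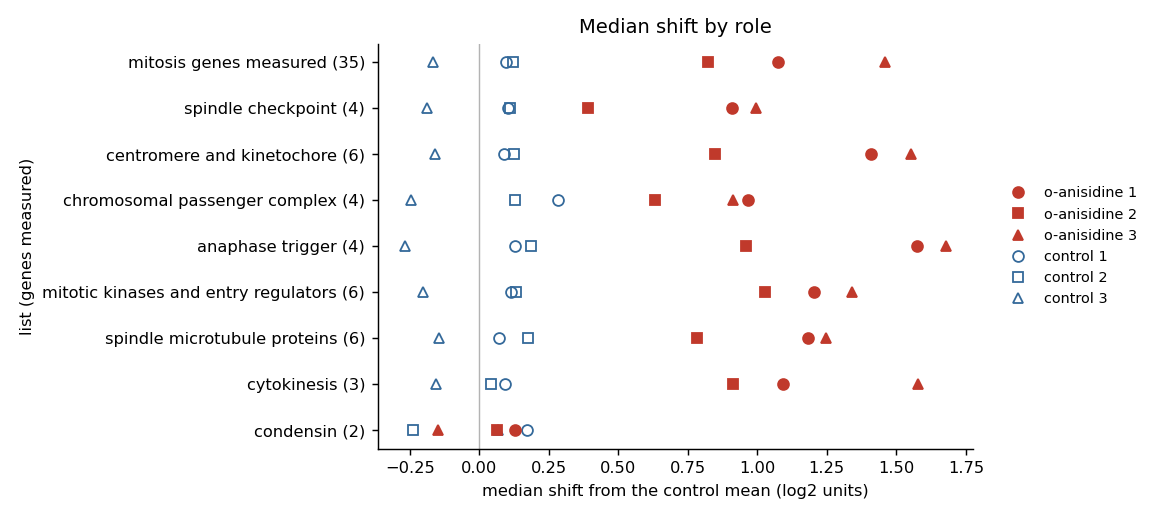
Median shift from the control mean (log2 units, horizontal axis) of the 35 measured genes and of each role group, on each of the 6 arrays; filled red symbols are o-anisidine arrays and open blue symbols controls, with the number of genes in brackets. Red and blue do not overlap in 7 of the 8 role groups measured, with o-anisidine 2 lowest among the red, and they mix in condensin.

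Differences between role groups were not tested. The groups are of 2 to 6 measured genes each, and their medians ran from 0.01 for condensin and 0.76 for the checkpoint to 1.19 for cytokinesis, 1.29 for the kinetochore and 1.40 for the anaphase trigger. Within the checkpoint group the changes ran from 0.10 for Bub3 to 1.41 for Ttk. Different kept probes of one gene gave like values. The measured genes had 59 matched probes, of which 56 were bright enough to be kept. In all 14 genes with 2 or more kept probes the probes had the same sign, with a median difference of 0.12. The other 21 measured genes rested on 1 kept probe each.

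Other genes of the same pathways had smaller changes as a group. These lists, like the mitosis genes, were chosen with earlier results of these data known, so the contrast is a description only. Of 83 further genes in 7 lists, 60 were measured, and their median change was 0.05, with 41 above 0. Groups did not overlap in 16 of the 60 that were higher and 4 that were lower in the o-anisidine group, against 9.55% and 8.88% of all genes. At an unadjusted p under 0.05, 14 of the 60 were higher and 0 lower, against 6.36% and 5.14% of all genes, and 0 passed the adjusted threshold (limma), the lowest adjusted p being 0.105. The 15 core subunits, inhibitors and partners of the anaphase-promoting complex, the target of the checkpoint, had a median of -0.02. The smallest p among them was that of Fbxo5, its inhibitor EMI1, with a change of 0.45 (adjusted p = 0.424, limma). Cohesin, the ring that separase cuts, had a median of 0.01 over 7 genes, with Stag2 at -0.11. Condensin II had a median of -0.05 over 2 genes, with Ncaph2 at -0.18.

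Some single genes in these lists had changes of the size seen among the 35. In the checkpoint and outer kinetochore list (median 0.11, 10 measured of 14), Knl1, the scaffold on which checkpoint proteins gather, had a change of 0.73 ± 0.11 (SE; adjusted p = 0.108, limma). In the inner kinetochore list (median 0.13, 9 measured of 17), Cenpt, which links centromeric DNA to the NDC80 complex, stood at -2.54, -2.59 and -1.89 in the o-anisidine group and at -4.15, -4.14 and -4.93 in the controls. Its change was 2.07 ± 0.29 (SE, 4.19-fold; adjusted p = 0.105, limma), larger than that of any kinetochore gene among the 35. The spindle and centrosome list had a median of 0.52 over 9 genes, 6 of them higher without overlap, against 9.55% of all genes. Its smallest p was that of Fam83d, which carries a kinase to the spindle, at 2.06 ± 0.29 (SE; adjusted p = 0.108, limma). Fam83d was a dim probe, above background on 2 of 3 control arrays, so the size of its change is uncertain. In the cytokinesis and abscission list (median 0.12, 8 measured of 9), Arhgap11a, a regulator of RhoA, had a change of 0.89 ± 0.25 (SE; adjusted p = 0.295, limma).

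Markers of other cells that the cortex can hold were higher beside the mitosis genes in 2 lists. Of 12 erythroid markers, 10 were measured, with a median change of 1.21. In 8 of these the groups did not overlap with the o-anisidine group higher, and in 1, Tfrc, with it lower, against 9.55% and 8.88% of all genes. Hemgn (1.97; adjusted p = 0.0101, limma) and Ahsp (2.34; adjusted p = 0.0419, limma), genes of red cell precursors, rose past the adjusted threshold. The summed signal of the erythroid list was 1090 to 1310 in the o-anisidine group and 557 to 754 in the controls. Most of that sum on every array came from the globins Hbb and Hba-a1, with changes of 1.09 and 0.90. Gata1 was not well above background. Rhag, counted among the 8, was above background on 0 control arrays, so the size of its change is uncertain. Among treated arrays the median erythroid shift was 1.25, 1.32 and 1.10 on o-anisidine 1, 2 and 3. Of 12 injured tubule markers, 11 were measured, with a median change of 0.27. Without overlap, 6 of the 11 were higher and 1 was lower (Vcam1, an adhesion molecule, at -0.56), against 9.55% and 8.88% of all genes. At an unadjusted p under 0.05 (limma), 4 were higher and 1 lower, against 6.36% and 5.14% of all genes. The groups of Havcr1 overlapped, and its change of 2.25 had a 95% interval of -0.76 to 5.25. Krt19, a keratin of simple epithelia, had the smallest p among them, at 2.88 (adjusted p = 0.0894, limma). The summed signal of this list was 62.8 to 152 in the o-anisidine group and 50.6 to 54.7 in the controls. Taken by array, injured tubule markers shifted by a median of 0.44 (o-anisidine 1), 0.17 (o-anisidine 2) and 0.28 (o-anisidine 3). The lowest of these shifts fell on o-anisidine 2, as with the mitosis genes. The highest fell on o-anisidine 1, whereas that of the mitosis genes fell on o-anisidine 3. The part of either cell source in the mitosis genes' values was not tested.

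In the other cell type lists the medians were near or below 0. Lymphocyte markers had a median change of -0.37 over 9 of 12, with Lck at -0.42, and their summed signal was 1.68 to 2.12 in the o-anisidine group and 1.99 to 2.17 in the controls. Macrophage and neutrophil markers had a median of -0.10 over 11 of 12. The neutrophil proteins S100a9 and S100a8 were at 1.37 and 1.36 (adjusted p = 0.115 and 0.155, limma). Without overlap, 3 of the 11 were higher and 1 was lower, against 9.55% and 8.88% of all genes. Collecting duct markers had a median of -0.31 over 8 of 8, with Scnn1b at -0.55 (adjusted p = 0.101, limma). Medians were 0.06 for the proximal tubule (Lrp2 at -0.20), -0.16 for the thick ascending limb (Egf at -0.17) and -0.02 for the distal tubule (Calb1 at -0.04). They were -0.11 for podocytes (Podxl at -0.31), -0.06 for endothelium (Emcn at -0.22) and -0.08 for fibroblasts and mesangium (Col1a1 at -0.42).

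**Figure D5:**
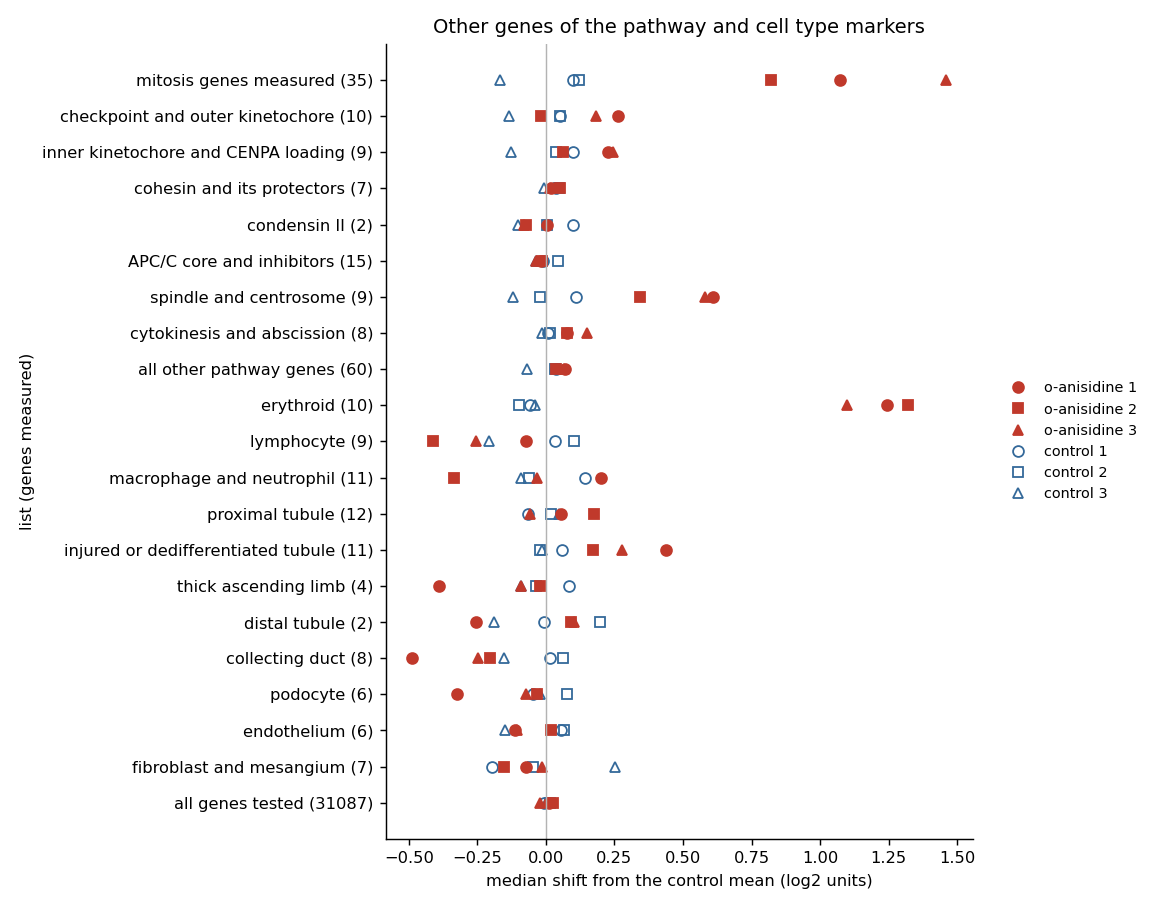
Median shift from the control mean (log2 units, horizontal axis) on each of the 6 arrays for the 35 mitosis genes, the 7 lists of other pathway genes, 11 cell type marker lists and all genes tested; filled red symbols are o-anisidine arrays and open blue symbols controls. The mitosis genes and the erythroid markers lie furthest right.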

How the data were processed

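Feature Extraction (version 10.7.1.1 per the file headers, 10.7 per the submitters' processing notes) made the deposited scanner files, with processed signal intensity per spot, background-subtracted, and other columns holding flags and probe annotation. The authors' deposited value table is the same intensity divided by each array's 75th percentile (100% of probes equal within 1%), on a linear scale and not centred; its replicate columns stand in another order within each group. Its column medians were 0.1038 to 0.1079.

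From the 61657 non-control probes, 42036 were kept: those with no outlier flag (16 had one) that exceeded background clearly on every array of one group or the other. RefSeq accessions gave 27460 probes 15284 symbols (GRCr8, names only); 34197 probes had none. log2 intensity minus each array's 75th percentile was fitted with limma 3.58.1 in R 4.3.3 (two-sided, 4 residual and 2.11 prior degrees of freedom), using the brightest kept probe per gene. Benjamini-Hochberg adjustment ran over 31087 genes, of which 12015 had a symbol. The fit was tested on simulated data. The number of arrays limits the precision.

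The genes and lists were chosen with earlier results of these data known. In each role group, the 2 genes with the smallest p and the one with the largest were given in full, with the smallest p in each other list; further genes are given by their change and were named after their values were seen. The planned search of protein sequences was not run.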

Additional observations from a re-analysis of the deposited data

How the results depend on the processing

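The median change of the 35 genes was positive in every setting run, and the genes higher without overlap numbered 31 to 33 of 35 (29 of 31 when probes had to be above background on all 6 arrays). The share of all genes with that pattern differed widely, so these counts do not weigh the same. It was 9.55% in the main fit, 19.6% with no filter on dim probes, 13.2% to 20.2% with 1 array left out and 25.2% on slide 1 alone. Leaving out 1 array at a time, the median was 1.00 to 1.27, genes called numbered 0 to 4 of the 35, and over all genes 2 to 16 were called higher (11 with all arrays) and 1 to 5 lower (8 with all arrays). Normexp, on the median signal because no mean signal column was present, was chosen after seeing the data: 67 genes were called higher and 17 lower, 8 of the 35 were called, and medians were 0.78 for the 35, 0.69 for the kinetochore, 0.39 for the passenger complex and 0.69 for spindle proteins. An intensity trend with robust variance gave 91 higher and 29 lower, with 8 of the 35. No filter on dim probes gave 5 higher. Probes above background on all 6 arrays gave 5 lower, with medians of 0.84 for spindle proteins and 0.27 for condensin. The slide as a block gave 2 higher and 1 lower. In that fit, as on slide 1 alone, the change was that of o-anisidine 3 against the controls. In both the median was therefore the same, 1.46, with cytokinesis 1.58, condensin -0.15 and Incenp -0.26. The condensin median, over 2 genes, was also negative with the slide as a random block (-0.0048) and ranged from -0.10 to 0.10 when 1 array was left out (-0.04 without o-anisidine 1, -0.0095 without o-anisidine 2, -0.10 without control 2). Same-numbered animals correlated by 0.0201, 0.0773 and 0.0123, and differently numbered ones by -0.0485 to 0.0293. With so few arrays these values cannot settle whether the numbers pair the animals. With the replicate block 1 gene was called higher, 0 lower and 0 of the 35. The normexp offset of 50 makes changes of dim probes smaller by construction. Beyond that, the cause of values that moved was not tested. Array median scaling, quantile normalization, the mean of probes and the authors' value table called 0 of the 35, with 11 or 12 genes higher and 7 to 10 lower over all genes. Among the 35, genes dim in controls (Cenpa, Aurkb, Hmmr) have the least certain sizes.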

Other observations

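Within the 28 measured genes with a RefSeq promoter, the size of the change was given by presence of each motif, as a description with no test. The 16 with the CHR letters had a median change of 1.15, and the 12 without had 1.12. The 21 with a CCAAT box had a median of 1.27, and the 7 without had 0.96. Among the 13 genes with 2 or more CCAAT boxes the median was 1.41. Both CHR groups spanned small and large changes, from -0.24 to 2.32 with the letters and from 0.25 to 1.66 without.

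Tfrc, the transferrin receptor of red cell precursors and dividing cells, had a change of -0.85 (adjusted p = 0.329, limma), while 9 of the 10 measured erythroid markers were above 0. Tfrc was picked after its value was seen.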
